A study of Drosophila melanogaster with 2 samples.

Results

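The larval fat body of *Drosophila melanogaster* was set against brain-disc complexes on 2-colour oligonucleotide arrays, and the members described here are all probes with a deposited fat body value. They number 4893 of the 14532 probes in the table (33.7%), and each was taken whatever the salivary gland column of the same table held. The salivary gland column, for comparison, had 8026 values, and 4391 of the fat body probes (89.7%) had a value in both. Fat body RNA carried Cy3 and brain-disc RNA carried Cy5. Both tissues were dissected by hand from wild-type yw67c23 larvae aged 70 to 75 hours since the eggs were laid, with an egg-laying period of 6 hours. Salivary glands were handled in the same way. Each fat body value is the authors' mean over 2 biological replicates, and each salivary gland value their mean over 3. All groups share the strain, the age and the brain-disc comparator, and the labels give no count of the animals behind a dissection.

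The fat body is the main storage and metabolic organ of the larva. It takes up nutrients, stores fat and glycogen, and releases storage proteins and other proteins into the hemolymph. Its cells grow in the endocycle, in which S phases alternate with gaps and mitosis is skipped, so that each nucleus becomes polyploid. Brain and imaginal discs contain many mitotically cycling cells. In dividing cells, E2F-family factors activate genes of DNA replication, and the Myb-MuvB complex activates genes of mitosis. The comparison of fat body with brain-disc complexes asks which transcripts differ between an endocycling tissue and a mitotic one. Organ and type of cycle go together here and cannot be told apart. The study of these arrays also dealt with the genes that those factors control. None of the probe IDs could be paired with a gene (0 of 14532 matched the 17872 genes of the RefSeq table), so no replication, mitosis or fat body marker gene could be looked up, and the labelled tissue could not be checked against its markers. The values are therefore described by size, tails and replicate support alone.

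What a positive value means for the tissues is not settled. The title of the fat body column names fat body first, which would put it in the numerator. Image software of the kind used commonly divides the Cy5 signal by the Cy3 signal, and the numerator would then be brain-disc RNA. Positive and negative are used below without assigning either to a tissue. The sources used here do not give the log base, the centring or the background correction, and the values are read as log2. With 1 mean per probe and no replicate values, no value below carries an error and no probe could be tested. Intervals given for shares are exact binomial intervals at the 95% level and cover counting error only.

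Fat body and brain-disc RNA differed by less than 2-fold at 2300 of the 4893 probes (47.0%), and by at least 2-fold, which is 1 on the log2 scale in either direction, at the other 2593. Values at or above 1 numbered 1234 (25.2%) and values at or below -1 numbered 1359 (27.8%). The median was -0.18, the 1st percentile -4.39 and the 99th percentile 7.80. The middle of the column thus lay slightly below 0, whereas its upper tail reached further than its lower tail.

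The balance of the 2 signs turned round as the size grew. At 4-fold or more there were 908 positive probes (18.6%) and 524 negative ones (10.7%), which is 1.73 positive probes for each negative one. At 16-fold or more, 580 were positive (11.9%) and 82 negative (1.68%), a ratio of 7.07. At 256-fold or more, 45 were positive (0.92%) and 3 negative (0.0613%). Over all fat body probes, differences past 2-fold were slightly more often negative, and those past 16-fold were mostly positive. Among the 4391 probes that also had a salivary gland value, the balance was 475 positive against 516 negative at 4-fold, a ratio of 0.92, and 215 against 82 at 16-fold, a ratio of 2.62. The excess at 4-fold was thus absent, and that at 16-fold smaller, when probes without a salivary gland value were left out.

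The upper side did not decline steadily. In steps of 0.5 on the log2 scale, the fullest step held 706 probes, from -0.5 to 0. Going up, the count declined to 66 probes between 3 and 3.5. It then climbed to 86, 98 and 99 probes in the next 3 steps, up to 5, and came down to 46 between 6.5 and 7. Going down from 0, the steps held 623, 477, 358, 231, 109 and 64 probes, to -3.5. The next 2 steps held 37 and 40 probes, and 15 lay between -5 and -4.5. The column therefore had a main peak near 0 and a lower, broad one at log2 values of about 4 to 6, with none of that size among its negative values.

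The broad upper peak was present among values marked as averages by their last digit. A single array's log ratio was taken to have 3 decimals, as read from the deposited values. The mean of 2 arrays then ends in 1 more decimal, a 5, for about 1 of 2 probes. Not every value of the table has such a form, as the salivary gland value 7.84828 shows. That digit marked 2311 values as means of 2. Of these, 25 lay between 3 and 3.5, and 37, 43 and 44 lay in the next 3 steps. The marked values had a median of -0.20 and ranged from -7.01 to 13.2. At 16-fold or more, 216 of them were positive and 35 negative, a ratio of 6.17.

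Most of the upper peak consisted of probes without a salivary gland value. Between 4 and 5, 118 of 197 probes lacked one, counting 53 between 4 and 4.5 and 65 between 4.5 and 5. Among the 4391 probes with both values, 46 had a fat body value between 3 and 3.5, and 58, 45 and 34 lay in the next 3 steps. The step from 5 to 5.5 held 43. Probes with both values thus showed a shoulder in this range rather than a clear rise. Their 95th percentile was 3.94, against 5.77 over all fat body probes.

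The support behind a value depended on its size. Since about 1 of 2 means of 2 carries the added digit, the share of values that came from 1 array can be estimated from the share without it. Over the whole column, 47.2% of values were marked (45.8 to 48.6%), which puts an estimated 5.54% on 1 array (2.72 to 8.35%). For values under 2-fold in size, 49.3% were marked and the estimate was 1.48% (0 to 5.60%). Nearly all probes in the middle of the column were thus averages of both replicates.

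The estimate was highest at the upper end. Between 1 and 2 on the positive side, it was 0.61% (0 to 11.7%), and between 2 and 4 it was 12.2% (1.08 to 23.1%). Between 4 and 6, 153 of 374 values were marked, and an estimated 18.2% came from 1 array (7.84 to 28.2%). Between 6 and 8, 57 of 161 were marked, and the estimate was 29.2% (13.4 to 43.9%). At 8 or more, 6 of 45 were marked, which puts an estimated 73.3% on 1 array (46.4 to 89.9%). The intervals of the last step and of values under 2-fold in size did not overlap. With 45 probes in that step, the interval leaves the share from 1 array anywhere between these bounds.

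Intervals for negative values overlapped those for positive values in steps with the same bounds. Between -2 and -1, 428 of 835 values were marked, and the estimate was 0% (0 to 4.38%). Between -4 and -2, 193 of 441 were marked, for an estimated 12.5% from 1 array (2.93 to 21.8%). At -4 or less, 35 of 82 were marked, for an estimated 14.6% (0 to 36.4%). For all values of 4 or more the estimate was 25.5% (17.4 to 33.4%), and the interval overlapped that of values of -4 or less. In these comparisons no difference between the signs was shown, although overlap of intervals is no test of one. These 2 open-ended groups were not matched in size, with 206 values of 6 or more against 9 of -6 or less. Over all values past 2-fold, an estimated 15.4% of the 1234 positive ones (9.77 to 20.9%) and 3.46% of the 1359 negative ones (0 to 8.83%) came from 1 array, with more of the positive ones at large sizes. These 2 intervals did not overlap. Whether sign goes with support apart from size was not tested.

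Fat body values without a salivary gland value had lower support over all sizes. An estimated 29.1% of them came from 1 array (20.4 to 37.5%), against 2.85% of those with one (0 to 5.82%). At 4 or more, 120 of the 365 fat body values without a salivary gland value were marked, for an estimated 34.2% from 1 array (24.1 to 43.8%). With a salivary gland value, 96 of 215 were marked, for an estimated 10.7% (0 to 24.2%). The 2 intervals just overlapped. Below 4, values with a salivary gland value had an estimate of 2.44% (0 to 5.50%), and the 137 without one had an estimate of 15.3% (0 to 32.1%). These intervals overlapped too. Overlap is no test of a difference, and in both size ranges the estimate was higher without a salivary gland value. The groups were not matched in size within these ranges, so a link with the missing value apart from size was not tested.

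The extremes of the column were examined probe by probe. The 3 highest probes all held 16.999 and the next held 16.8. These 4 lay above 16, the log2 span of a 16-bit scanner. None of the 3 tied probes had a salivary gland value, none was marked as a mean, and they came from 3 different source plates. The 3 lowest probes likewise shared 1 value, -8.97, on 3 plates and unmarked. All 3 had salivary gland values, which differed, at -6.43, -5.49 and -4.21. The outermost value of each end was thus a tie of 3 probes, and how the ties arose was not tested.

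Among marked values, the highest was that of DAC013D10, at 13.2 in the fat body column and 5.79 in the salivary gland column. The next was DAC003M14, at 9.47 with no salivary gland value. The lowest marked values were those of DAC029J24, at -7.01 in the fat body column and -2.38 in the salivary gland column, and DAC019J06, at -6.91 and -2.98. All 4 are marked as means of 2, and the 3 with both values had the same sign in both columns and a larger size in the fat body column. None has a gene name here. The 10 highest marked values reached from 7.71 to 13.2 and the 10 lowest from -7.01 to -5.13.

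Fat body and salivary gland values are next given side by side. Both columns use brain-disc RNA and the same dyes, so likeness between them is no independent result. Of the 4391 probes with both values, 729 (16.6%) were at or above 1 in the salivary gland column and 1607 (36.6%) at or below -1, and the counts that follow are to be read against these shares. Among the 786 fat body probes at or above 1 that had both values, the fat body median was 2.45 and the salivary gland median 1.31. Of these probes, 467 (59.4%) were at or above 1 in the salivary gland column too, 276 (35.1%) were within 2-fold there and 43 (5.47%) were at or below -1. Among the 1342 at or below -1, the fat body median was -1.77 and the salivary gland median -1.65. Of these, 994 (74.1%) were at or below -1 in the salivary gland column, 333 (24.8%) were within 2-fold and 15 (1.12%) were at or above 1. The positive fat body probes were larger in the fat body column at 653 of 786 probes (83.1%), and the negative ones at 831 of 1342 (61.9%). These probes were picked by their fat body value, which by itself favours a larger size in that column.

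Step by step, the salivary gland median stayed below the fat body median on the upper side. Probes between 1 and 2 had a fat body median of 1.35 and a salivary gland median of 0.59. Probes between 4 and 5 had 4.44 and 3.09, and those between 5 and 6 had 5.46 and 3.84. On the lower side the columns had -1.42 and -1.29 for probes between -2 and -1 and -3.36 and -2.82 for those between -4 and -3. Between -5 and -4 they had -4.28 in the fat body column and -3.42 in the salivary gland column, and below -5 they had -5.56 and -3.75. In the steps given, the gap between the columns was wider at larger sizes on both sides. On the upper side it did not widen at every step. The gap was wider for probes between 3 and 4 than for those between 4 and 5. The step below -5 is open-ended. The open-ended step of 8 or more had 9.115 in the fat body column and 5.03 in the salivary gland column, on 7 probes. At -4 or less, all 82 fat body probes were also at or below -1 in the salivary gland column, where 36.6% of all probes with both values lay.

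When the probes were instead ordered by the salivary gland value, the gap did not run one way. Probes between 1 and 2 in the salivary gland column had a fat body median of 0.94 against a salivary gland median of 1.36. Those between 3 and 4 had 4.31 in the fat body column and 3.37 in the salivary gland column. Those between -3 and -2 had -1.79 and -2.38. Those below -4 had -3.45 in the fat body column and -4.61 in the salivary gland column. Which column holds the larger size therefore depended on the ordering column for probes between 1 and 2 and for those below -1. For salivary gland values of 4 or more, the fat body median of 5.61 was above the salivary gland median of 4.83. These probes were chosen by the salivary gland column and also by having a fat body value, which 103 of 267 (38.6%) had.

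The presence of a salivary gland value declined steeply along the upper side of the fat body column. Between -1 and 0, 1314 of 1329 fat body probes (98.9%) had one. The share was 95.4% between 1 and 2, 88.6% between 2 and 3, 68.4% between 3 and 4 and 40.1% (33.2 to 47.3%) between 4 and 5. At 8 or more it was 15.6% (6.49 to 29.5%), or 7 of 45 probes. On the lower side it stayed at 97.9% or more in every step of 1. Loss of the other column's value was thus a feature of large positive fat body values.

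Being a member of the fat body column was itself uneven across the probes. Of the 2613 probes whose salivary gland value was marked by a repeating fraction as a mean of 3 arrays, 2054 (78.6%) had a fat body value. Of the 1090 marked as means of 2, 487 (44.7%) had one. Of the 4323 with neither mark, which mix means with single readings, 1850 (42.8%) had one. Of the 6506 with no salivary gland value, 502 (7.72%) had one. Probes with a salivary gland value from all 3 arrays thus had a fat body value most often. The share of fat body values of 4 or more ran the other way, at 3.16% for means of 3, 6.57% for means of 2 and 72.7% for probes with no salivary gland value. By salivary gland size, 67.8% of probes between -3 and -2 had a fat body value, against 39.5% of those between 1 and 2 and 38.6% of those at 4 or more.

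The column number of the probe ID was folded to 12 positions, so that columns 12 apart share a position. Fat body values differed between these positions. The share of probes with a value was 45.0% at position 1 and 24.9% at position 12. Values at or below -1 made up 16.6% of the values at position 1 and 36.3% at position 8. Values of 4 or more ranged from 8.70% at position 9 to 15.9% at position 12. The excess of large positive values was nonetheless seen at each position, with 32 to 81 values of 4 or more and 3 to 11 of -4 or less. It was also seen in each of the 16 row letters and in each of the 38 source plates with a nearly full set of probes. Medians of those 38 plates lay between -0.46 and 0.15, and 32 were negative. The long upper tail was therefore spread over the positions, rows and plates of the probe IDs. Places on the slide were not examined. Position medians of the fat body column ran from 0.25 at position 1 to -0.46 at position 8, a span of 0.70. Salivary gland medians were -0.47 at position 1 and 0.43 at position 12. The medians rest on different probes at each position, and whether the zero point moved was not tested.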

How the data were processed

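The authors deposited averages: each log2 value is their mean of the channel log ratios of 2 fat body or 3 salivary gland replicates, per the labels. The base was read as log2, and the sources used here do not give the base, the centring, the direction or the rule that left values missing. Slides were scanned and extracted with GenePix tools, per the series' design text. Column medians were -0.18 for the fat body and -0.22 for the salivary gland. Depth does not apply to arrays, and their number limits the precision. No test across probes or samples was possible. Values were counted past 2-fold as deposited, without filtering or rescaling. Means of 2 arrays were recognised by a last added decimal of 5 (within 5e-07), and means of 3 by a repeating fraction. The estimator was tested on simulated data. Named probes were the 2 highest and 2 lowest marked values, the 6 tied extremes being described without IDs. The members, settings and marker lists were chosen with earlier results of these data known, and the lists could not be applied. Alternatives changed the zero point, the scale, the threshold and the probes. Python 3.11.15, pandas 2.3.3, numpy 2.4.6 and scipy 1.17.1 were used.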

Additional observations from a re-analysis of the deposited data

How the results depend on the processing

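No paired analysis was possible because the fat body data are 1 averaged column, and no replicate could be left out for the same reason. Counts of probes past the threshold were repeated 14 times with another setting, and 10 of them differed from the value above by less than 1.5 times. At 3-fold, 815 probes were negative, which follows from the stricter threshold. On probes with a salivary gland value, 786 were positive and the median was -0.33, since most large positive values lack one. On values marked as means of 2, which hold about 1 of 2 such means by construction, 522 were positive and 656 negative, and 55.7% of them were negative. This share was 52.4% as deposited and 46.6% after centring on the median (1343 positive and 1172 negative), so which sign led at 2-fold depended on the zero point. At 16-fold positive values led under each setting run: by 215 against 82 on probes with a salivary gland value, by 216 against 35 on marked values, by 611 against 60 after centring, and by 570 against 72 with the 12 positions brought to 1 median, a setting chosen after seeing the data. Without replicate values, probe-level differences could not be set against replicate error.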

Other observations

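Source plate c01 held 48 probes. A fat body value was listed for 0 of them, while 41 had a salivary gland value, from -0.94 to 0.59. Of all 14532 probes, 4893 (33.7%) had a fat body value and 8026 a salivary gland value. Plate c01 was left out of the counts by position and row. Among the 662 fat body values of 16-fold or more in either direction, 60 shared their exact value with at least 1 other probe of that size. Over all sizes, the 4893 fat body probes held 4053 distinct values, with at most 7 probes on 1 value. Shared values are thus not particular to large sizes. Among the 4391 probes with both values, no 2 agreed in both columns.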
